A study of Mus musculus with 8 samples.

Results

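The 8 Frizzled genes *Fzd1* to *Fzd8* and the 2 coreceptor genes *Lrp5* and *Lrp6* were followed in RNA of sorted growth plate cells. They were taken by gene symbol, and all 10 were present among the 16536 genes of the count table. The cells were mCherry+CD73+ cells, sorted by flow cytometry from the femoral growth plates of Pthrp-mCherry mice, whose red reporter follows the gene of PTHrP, *Pthlh*. CD73 is the product of *Nt5e* and marks the upper zones of the growth plate. All mice carried the same reporter, and the labels distinguish them by treatment only. In the SAG group 4 mice received SAG, a small-molecule agonist of Smoothened that switches on Hedgehog (Hh) signaling. In the DMSO group 4 mice received the vehicle. Injections were intraperitoneal and daily from P30 to P36 (P, postnatal day), and the mice were killed at P38. Each mouse gave 1 library of its pooled femoral growth plates. Both sexes were used, and the sex of each mouse is not given in the labels.

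Frizzled proteins are multi-pass membrane receptors that bind Wnt ligands through an extracellular cysteine-rich domain. Lrp5 and Lrp6 are single-pass proteins of the LDL receptor family that join a Frizzled and its ligand, and their cytoplasmic tails then recruit Axin and stabilize β-catenin. Frizzleds also act without the coreceptors in planar cell polarity, the alignment of cells within a tissue, and they share their receptor class with Smoothened, the target of SAG. In cartilage, Wnt signaling takes part in the choice between resting, proliferating, and maturing chondrocytes. The comparison addressed whether a systemic Hh agonist was accompanied by a change in the receptors with which these cells receive Wnt.

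The libraries held 24971992 to 46593090 counts, of which DMSO replicate 4 had the fewest. Levels are given as CPM (each count as a rate against the TMM-scaled total of its library). The 15 chondrocyte markers were all present, and *Col2a1*, the main cartilage collagen gene, was at 11759 to 68832 CPM. *Pthlh* was at 14.9 to 22.1 CPM with DMSO and 18.4 to 29.9 CPM with SAG. Its groups overlapped (log2 fold change 0.37, adjusted P = 0.606 by edgeR). *Nt5e*, the gene of the sorted marker, was at 184 to 269.6 CPM with DMSO and 149 to 174 CPM with SAG. Every SAG library of *Nt5e* was below every DMSO library (log2 fold change -0.51, adjusted P = 0.186 by edgeR). Other cell types contributed unequally. The summed level of 12 neutrophil markers, led by *S100a9*, was 4839 to 14471 CPM with DMSO and 27654 to 43844 CPM with SAG, and 9 of the 12 genes were called higher. The summed level of 12 B lineage markers, led by *Ebf1*, was 105 to 499 CPM with DMSO and 27.1 to 52.1 CPM with SAG, and 4 of the 11 tested genes were called lower. The chondrocyte sum was 50454 to 119497 CPM with DMSO and 20735 to 57759 CPM with SAG, and 0 of 15 genes were called. Endothelial markers, led by *Pecam1*, summed to 38.4 to 101 CPM and 42 to 73.4 CPM. Osteoblast markers, led by *Col1a1*, summed to 7383 CPM in DMSO replicate 1 and to 1205 to 2739 CPM in the other DMSO libraries. With SAG their sum was 1353 to 3465 CPM. Erythroid markers, led by *Hbb-bs*, summed to 549 to 4960.3 CPM with DMSO, highest in replicate 4, and to 305 to 3402 CPM with SAG. No gene of these last 2 lists was called. The part of these cells in the receptor values was not tested.

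None of the 10 receptor genes was called at an adjusted P under 0.05 (edgeR's quasi-likelihood test, Benjamini-Hochberg adjustment over 15421 genes), against 2.89% of all genes tested. *Fzd1* had the largest log2 fold change of the 10 and was at 15 ± 4.51 CPM with DMSO and 4.66 ± 2.44 CPM with SAG (mean ± SD, n = 4 each), and it alone had an unadjusted P under 0.05, 1 of 10 against 16.1% of all genes. *Fzd1* was called by DESeq2, 1 of the 9 members with an adjusted P against 9.95% of all genes, and by limma voom, 1 of 10 against 8.88%. A count of 1 member is thus near the background in each of these. Its groups did not overlap, with SAG below DMSO, which was so for 1 of 10 members and for 3.84% of all genes tested. No member had SAG above DMSO without overlap, against 7.9% of all genes. Of all genes, edgeR called 2.62% higher and 0.266% lower, while DESeq2 called 812 genes higher and 413 lower and limma voom 982 and 388. The members' median log2 fold change was -0.12 and that of all genes was -0.08, and 6 of the 10 members lay below 0, against 54.8% of all genes. Without DMSO replicate 1 the members' median was 0.01. In the bulk RNA of a sorted population, fewer cells of a type and less RNA per cell cannot be told apart.

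**Figure D1:**
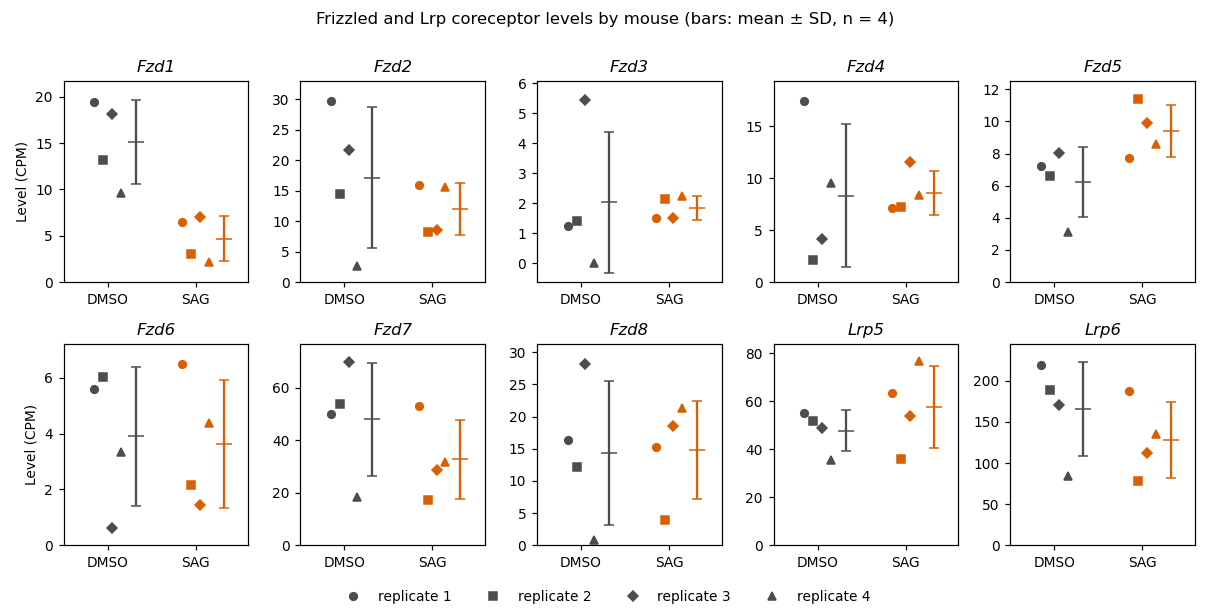
Level in CPM (linear axes, 1 panel per gene) of the 10 receptor genes in the 4 DMSO and 4 SAG libraries, with symbols for replicates and bars for the mean ± SD. The *Fzd1* values with SAG lie between 2.14 and 7.0 CPM, below the lowest DMSO value of 9.57 CPM, and the groups of the other 9 genes overlap.

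Levels of different genes were compared per length, as CPM per kilobase of exon. With DMSO, *Lrp6* stood at 12.1 ± 4.22, *Fzd7* at 10.6 ± 4.75, *Lrp5* at 4.91 ± 0.881, *Fzd2* at 4.67 ± 3.15, *Fzd1* at 3.58 ± 1.08, and *Fzd8* at 2.40 ± 1.88 CPM per kilobase. *Fzd4* at 1.24 ± 1.02, *Fzd5* at 0.903 ± 0.314, *Fzd6* at 0.809 ± 0.514, and *Fzd3* at 0.158 ± 0.184 CPM per kilobase followed. Neighbors in this order differed by less than the larger SD of the pair, except *Fzd7* from *Lrp5* and *Fzd6* from *Fzd3*. *Lrp6* held the first place in 7 of the 8 libraries, and *Fzd7* did in DMSO replicate 3. The exon length counted for *Lrp6*, since with its longest transcript alone its DMSO level was 17.7 CPM per kilobase. With SAG the values were 9.38 ± 3.36 for *Lrp6*, 7.23 ± 3.30 for *Fzd7*, 5.92 ± 1.77 for *Lrp5*, and 3.29 ± 1.16 for *Fzd2*. *Fzd1* then stood at 1.11 ± 0.582 CPM per kilobase, below *Fzd8* at 2.48 ± 1.28, *Fzd5* at 1.36 ± 0.232, and *Fzd4* at 1.28 ± 0.31. *Fzd6* at 0.751 ± 0.475 and *Fzd3* at 0.143 ± 0.0309 CPM per kilobase were again last. For scale, *Fzd9*, a Frizzled outside the set, was at 17.5 ± 3.47 with DMSO and 14.6 ± 7.39 with SAG.

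*Fzd1*, *Fzd2*, and *Fzd7* are the closest relatives among the Frizzleds, each made from a single exon. *Fzd1* (GRCm38 chr5:4753839-4758035, minus strand) passes on β-catenin signals. Its level with DMSO was 19.4, 13.2, 18.1, and 9.57 CPM in replicates 1 to 4. With SAG it was 6.50, 3.02, 7.0, and 2.14 CPM, from 94 to 281 counts per library. Every SAG library was thus below every DMSO library. The log2 fold change was -1.69 (SE 0.50, 95% interval -2.79 to -0.59, or 0.145 to 0.665 times the DMSO level) and the adjusted P was 0.103 by edgeR, at rank 895 of 15421 genes by P. *Fzd1* is among the Wnt genes that the study displayed from these same libraries, so its direction is not independent evidence. The call depended on the test and on 1 library: the adjusted P was 0.0122 by DESeq2, 0.0194 by limma voom, and 0.0355 by edgeR without DMSO replicate 4, with log2 fold changes of -1.71, -2.0, and -1.82. It was 0.0773 (log2 fold change -1.68) when SAG replicate 2 was left out as well.

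*Fzd2* (chr11:102604396-102608058, plus strand), a receptor that can receive Wnt5a, was at 29.8, 14.4, 21.7, and 2.58 CPM with DMSO. With SAG it was at 15.9, 8.18, 8.52, and 15.6 CPM, all within the DMSO range. Its log2 fold change was -0.51 (SE 0.59, 95% interval -1.81 to 0.79, adjusted P = 0.763 by edgeR). *Fzd7* (chr1:59482424-59486955, plus strand), known from stem and progenitor cells of several tissues, was at 50.1, 53.9, 69.6, and 18.3 CPM with DMSO. With SAG it was at 53.2, 17.4, 28.6, and 31.8 CPM. SAG replicates 2 to 4 were below DMSO replicates 1 to 3, and DMSO replicate 4 was near the lowest SAG value. The log2 fold change was -0.55 (SE 0.42, 95% interval -1.47 to 0.37, adjusted P = 0.594 by edgeR).

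Reads of these 3 genes can in part be shared. Of the 31-base stretches of their annotated transcripts, 1.61% in *Fzd1*, 1.9% in *Fzd2*, and 0.777% in *Fzd7* also occur in another member, with 53 stretches common to *Fzd1* and *Fzd2*. Of these 3 relatives, promoter windows were read for *Fzd1* and *Fzd7* only, and both are shown. Each is the 250 bases upstream of the RefSeq start site (GRCm38.p6), read 5′ to 3′ on the gene's strand, at chr5:4758217-4758466 (minus) and chr1:59481897-59482146 (plus). Capitals mark matches on either strand to GGGCGG (GC box), CCAAT, or the TCF/LEF letters, which are CTTTG followed by AA, AT, TA, or TT.
Fzd1: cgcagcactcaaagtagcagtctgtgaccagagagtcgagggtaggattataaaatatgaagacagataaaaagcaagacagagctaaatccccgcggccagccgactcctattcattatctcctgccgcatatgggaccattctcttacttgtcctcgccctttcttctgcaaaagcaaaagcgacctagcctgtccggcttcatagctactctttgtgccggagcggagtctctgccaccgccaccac
Fzd7: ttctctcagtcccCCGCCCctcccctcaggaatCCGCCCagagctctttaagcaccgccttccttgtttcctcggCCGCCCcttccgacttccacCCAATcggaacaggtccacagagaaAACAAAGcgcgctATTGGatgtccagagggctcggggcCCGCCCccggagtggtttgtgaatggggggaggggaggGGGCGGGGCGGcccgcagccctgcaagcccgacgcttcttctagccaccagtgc
The *Fzd7* window held 6 GC boxes, 2 CCAAT boxes, and 1 TCF/LEF match, with overlapping GC boxes counted each. The *Fzd1* window held none of these letters, nor GACCACCCA (the GLI motif) or CACGTG (E box). Among 32841 such windows, 32.7% held a GC box, 33.9% CCAAT, 14.8% a TCF/LEF match, 0.225% the GLI letters, and 6.02% the E box. GC content was 51.2% in the *Fzd1* window and 65.2% in that of *Fzd7*, and the median of all windows was 52.4%. Windows were also read for 2 more members, with GC contents of 72.8% and 7 GC boxes for *Fzd4* and of 76.4% and 9 GC boxes for *Fzd5*. No window was read for the other members, *Fzd2* and *Fzd8* among them. The start sites of RefSeq and GENCODE lay 181 bases apart for *Fzd1* and 277 for *Fzd7*, so that these windows depend on the annotation.

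*Fzd5* and *Fzd8* form another pair of close relatives. *Fzd5* (chr1:64730558-64737751, minus strand), which serves β-catenin signaling, was at 7.2, 6.61, 8.06, and 3.11 CPM with DMSO and at 7.73, 11.4, 9.89, and 8.62 CPM with SAG. The groups overlapped through SAG replicate 1 alone, which was below DMSO replicate 3. Its log2 fold change of 0.59 (SE 0.46, 95% interval -0.42 to 1.6, adjusted P = 0.606 by edgeR) was the highest of the 10. Of its 31-base stretches, 17.2% also occur in other genes, nearly all in *Gm38058*, which lies on the opposite strand of its 5′ end. *Fzd8* was at 16.3, 12.1, 28.1, and 0.873 CPM with DMSO and at 15.3, 3.97, 18.6, and 21.4 CPM with SAG. The DMSO libraries thus spanned 32.2-fold, the widest span of the members above 0 throughout. Its log2 fold change was 0.05 (SE 0.77, 95% interval -1.65 to 1.74, adjusted P = 0.989 by edgeR), an interval that holds a change of 3-fold in either direction.

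*Fzd4* (chr7:89404355-89413134, plus strand), which also binds norrin and is best known from blood vessels of the retina, was at 17.5, 2.12, 4.17, and 9.57 CPM with DMSO. With SAG it was at 7.10, 7.25, 11.6, and 8.44 CPM, again within the DMSO range. The log2 fold change was 0.04 (SE 0.61, 95% interval -1.30 to 1.39, adjusted P = 0.987 by edgeR). *Fzd3* and *Fzd6* are the Frizzleds best known from planar cell polarity. *Fzd6* (chr15:39006034-39038188, plus strand) was at 5.6, 6.03, 0.634, and 3.34 CPM with DMSO and at 6.50, 2.16, 1.44, and 4.38 CPM with SAG, with a log2 fold change of -0.11 (95% interval -1.93 to 1.72). *Fzd3* (chr14:65192449-65262463, minus strand) was at 1.24, 1.41, 5.44, and 0 CPM with DMSO and at 1.49, 2.12, 1.49, and 2.24 CPM with SAG. DMSO replicate 4 had 0 counts of *Fzd3*, where 3 counts would be 0.12 CPM. The *Fzd3* interval of -2.95 to 2.67 around a log2 fold change of -0.14 was the widest of the set, so that even large changes in this gene were not detectable at this depth and spread.

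**Figure D2:**
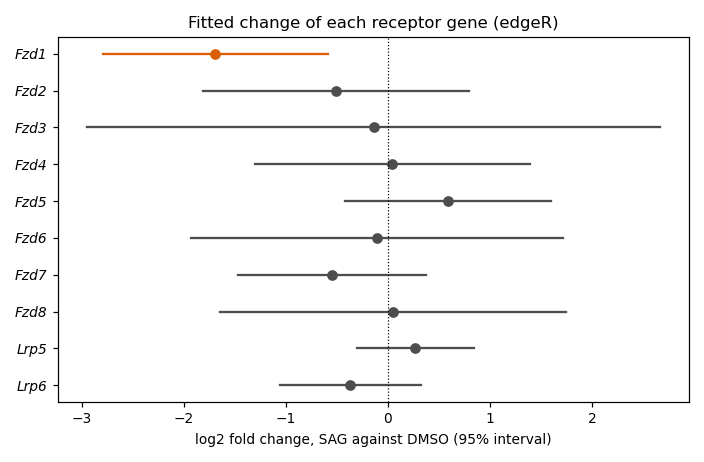
Fitted log2 fold change of SAG against DMSO (horizontal axis) with its 95% interval for each of the 10 genes, by edgeR over 4 libraries a group, with *Fzd1*, whose groups do not overlap, in orange. The interval of *Fzd1*, -2.79 to -0.59, does not reach 0, and those of the other 9 genes do.

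The coreceptors were the most precisely measured members. *Lrp5* (chr19:3584828-3686564, minus strand), in which loss or gain of function changes bone mass, was at 55.2, 51.6, 48.8, and 35.5 CPM with DMSO. With SAG it was at 63.6, 36, 53.9, and 76.9 CPM, with SAG replicates 1 and 4 above every DMSO library and SAG replicate 2 next to the lowest. The log2 fold change was 0.27 (SE 0.26, 95% interval -0.30 to 0.84, or 0.81 to 1.79 times, adjusted P = 0.701 by edgeR). *Lrp6* (chr6:134446476-134566965, minus strand), its paralog, was at 219, 189, 170.1, and 84.7 CPM with DMSO and at 188, 78.2, 112, and 135 CPM with SAG. Here the lowest library of each group held about the same level. The log2 fold change was -0.37 (SE 0.32, 95% interval -1.06 to 0.32, or 0.478 to 1.25 times, adjusted P = 0.649 by edgeR). Both intervals exclude a 3-fold change in either direction, as do those of *Fzd4* and *Fzd7*. The intervals of *Fzd3*, *Fzd6*, and *Fzd8* hold such a change in both directions. Those of *Fzd1* and *Fzd2* hold a 3-fold decrease, and that of *Fzd5* holds a 3-fold increase. Summed per kilobase, *Lrp5* and *Lrp6* were at 17.0 ± 5.09 with DMSO and 15.3 ± 4.76 with SAG. The ratio of *Lrp6* to *Lrp5* counts within a library was 3.97, 3.66, 3.48, and 2.38 with DMSO and 2.95, 2.17, 2.08, and 1.76 with SAG. The ranges overlapped through DMSO replicate 4 and SAG replicate 1.

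The makeup of the set of *Fzd1* to *Fzd8* was read within each library, from CPM per kilobase summed over these genes. *Fzd9*, outside the set, is left out of this sum, and per kilobase it was above *Fzd7* in each library. The sum was 31.4, 23.6, 32.6, and 9.73 with DMSO and 23.8, 10.8, 17.0, and 19.0 with SAG. *Fzd7* gave the largest share in each of the 8 libraries, from 35.2% to 50.3%. The *Fzd1* share was 14.7%, 13.3%, 13.2%, and 23.4% with DMSO and 6.50%, 6.66%, 9.81%, and 2.69% with SAG, so that the shares separated the groups as the CPM did. The count ratio of *Fzd7* to *Fzd1* was 2.59, 4.09, 3.85, and 1.91 with DMSO and 8.19, 5.77, 4.09, and 14.9 with SAG, with DMSO replicate 2 and SAG replicate 3 at the same value when rounded. DMSO replicate 4 combined the highest *Fzd1* share with the lowest *Fzd8* share, at 1.5%. These shares restate the counts from which *Fzd1* was singled out and were given no test.

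**Figure D3:**
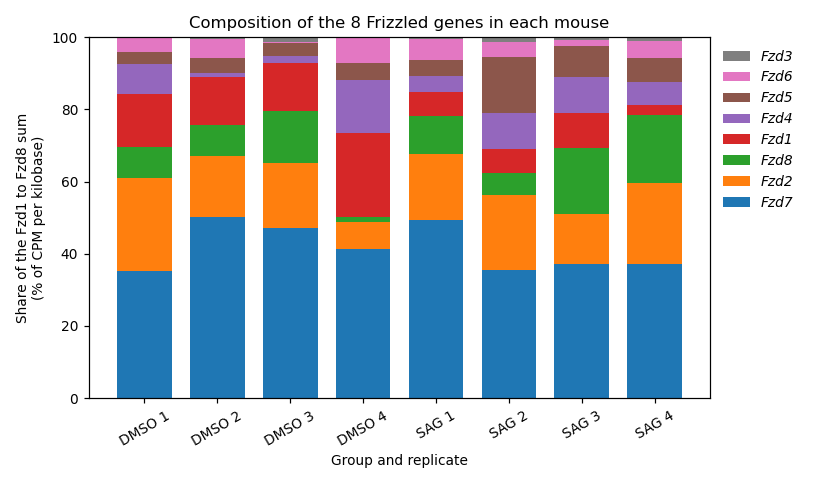
Share (%) of each gene in the summed CPM per kilobase of *Fzd1* to *Fzd8*, as 1 stacked bar for each of the 8 libraries, with *Fzd9* left out of the sum. *Fzd7* (blue, at the base) fills 35.2% to 50.3% of every bar, and *Fzd1* (red) fills 13.2% to 23.4% with DMSO and 2.69% to 9.81% with SAG.

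Several members were low in the same libraries. DMSO replicate 4 was the lowest of its group for 8 of the 10 members, the exceptions being *Fzd4* and *Fzd6*, and SAG replicate 2 was the lowest of its group for *Fzd2*, *Fzd7*, *Fzd8*, *Lrp5*, and *Lrp6*. The same libraries had the lowest chondrocyte marker sums of their groups, 50454 and 20735 CPM, and the highest neutrophil sums, 14471 and 43844 CPM. The chondrocyte score, the mean log2 CPM of the 15 markers, was 10.70 with DMSO and 9.65 with SAG. With this score as a covariate the log2 fold change of *Fzd1* was -1.09 (adjusted P = 0.558 by edgeR), and with the neutrophil score it was -0.73 (adjusted P = 0.747). It was -2.73 (adjusted P = 0.278) with the B lineage score and -1.69 (adjusted P = 0.158) with the endothelial score. Treatment accounted for 47.5%, 77.9%, 82.1%, and 2.43% of the variance of these 4 scores, so that for the first 3 treatment and cell makeup cannot be told apart by such a fit.

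Set against the chondrocyte score of its own library, *Lrp6* was at -3.41, -3.45, -3.36, and -3.44 with DMSO (log2 CPM minus the score, SD 0.04), the narrowest DMSO spread of the members. With SAG it was at -2.47, -2.35, -3.03, and -3.01. *Lrp6*, *Lrp5*, and *Fzd5* had SAG above DMSO without overlap on this scale, with differences of 0.70, 1.29, and 1.71. So did 19.9% of all genes tested, and the median difference of all genes was 1.10, since the score itself differed by -1.06. The *Lrp6* difference was thus below that median. *Fzd1* was at -6.91, -7.29, -6.59, and -6.58 with DMSO and at -7.31, -7.02, -7.03, and -8.95 with SAG. On this scale the *Fzd1* groups overlapped, and it was the only member with a negative difference, -0.74.

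**Figure D4:**
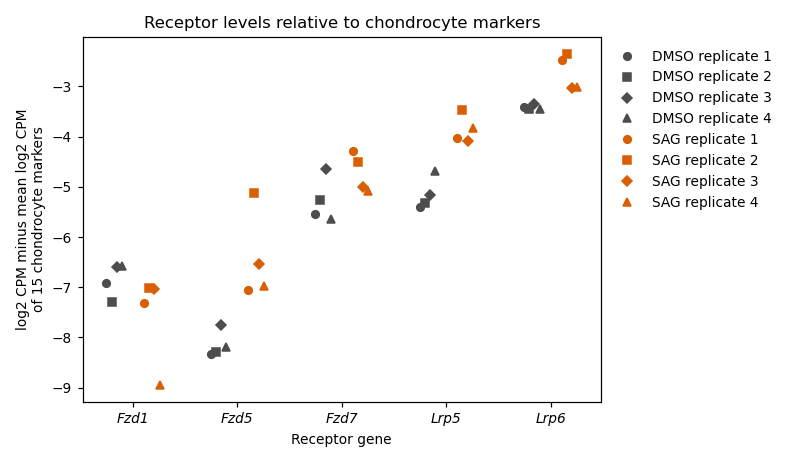
Log2 CPM of 5 receptor genes minus the mean log2 CPM of 15 chondrocyte markers (vertical axis) in the 4 DMSO (gray) and 4 SAG (orange) libraries, with symbols for replicates. The 4 *Lrp6* values with DMSO lie between -3.45 and -3.36, and the *Fzd1* groups, separate in CPM, overlap here.

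The genes whose pattern over the 8 libraries was most like that of a member were sought among 11198 others with a mean of at least 5 CPM, by the root mean square (RMS) difference of log2 CPM after removing each gene's mean. Closest to *Fzd1* were *Vangl1* (RMS difference 0.38), a core planar cell polarity gene, *Ddit4l* (0.41), and *Ift81* (0.41), a gene of ciliary transport, where the median of all genes was 1.19. Of the members above that minimum, the nearest to *Fzd1* was *Fzd7*, at 0.86. *Lrp6* was closest to *Cdc42bpb* (0.09), *Cdr2l* (0.11), and *Xylt1* (0.12), which starts glycosaminoglycan chains, with a median of 0.72. *Lrp5* was closest to *Fam104a* (0.14), *Sfxn2* (0.16), and *Phyh* (0.16), with a median of 0.62, and *Fzd7* to *Tulp3* (0.14), *Trabd2b* (0.16), and *Gpsm1* (0.17), with a median of 0.86. *Fzd7* and *Lrp6*, the 2 leading members, were 0.28 apart, while *Lrp5* and *Lrp6* were 0.40 apart. Genes of 1 library share its depth and cell makeup, and these distances are descriptions over 8 libraries.

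**Figure D5:**
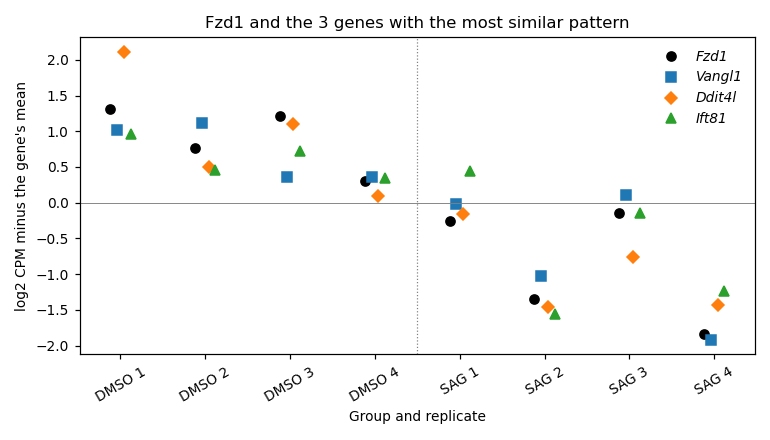
Log2 CPM minus the gene's own mean (vertical axis) of *Fzd1* and the 3 genes with the smallest RMS difference to it, in the 4 DMSO (left of the dotted line) and 4 SAG libraries. *Fzd1* and *Vangl1* are both lowest in SAG replicate 4.

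None of the 81 genes tested in 8 lists around the receptors was called by edgeR either. DESeq2 called 4 of 66 (6.06%) and limma voom 6 of 81 (7.41%), all lower. The shares of all genes called in either direction were larger, 9.95% and 8.88%. Those called lower were smaller shares, 413 of 12311 genes by DESeq2 and 388 of 15421 by limma voom. The difference was not tested. An unadjusted P under 0.05 by edgeR was held, in either direction, by 12 of the 81, against 16.1% of all genes. The list medians below moved with single libraries, and their ranges are given with 1 library left out at a time. Of 19 Wnt ligand genes 8 were tested, with a median log2 fold change of -0.89 (-1.06 to -0.29, highest without DMSO replicate 1). *Wnt5b*, the most abundant, had -0.66 (adjusted P = 0.597), and *Wnt11* had -1.45 (adjusted P = 0.168). Among 7 other Wnt receptors and class F relatives (median -0.59, range -0.95 to -0.33), *Smo*, the receptor that SAG binds, was at 97.3, 73.5, 109, and 38.4 CPM with DMSO and at 78.1, 21.6, 58.8, and 53.1 CPM with SAG. The groups overlapped, with a log2 fold change of -0.59 (95% interval -1.44 to 0.27, adjusted P = 0.527 by edgeR). *Ptk7* had -1.07 (adjusted P = 0.277). The relatives of *Lrp5* and *Lrp6* in the LDL receptor family (10 of 11 tested) had a median of -0.24 (-0.32 to -0.02), and *Lrp1*, an endocytic receptor, had -0.78 (adjusted P = 0.249).

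Genes that set how much receptor stays at the surface, R-spondins, Lgr receptors, and ubiquitin ligases among them, had a median log2 fold change of -0.72 (-0.82 to -0.52), and 8 of 9 lay below 0, against 54.8% of all genes. *Lgr4* had -0.83 (adjusted P = 0.458 by edgeR), and *Rspo4*, at 0 to 29.6 CPM, had -3.13 (adjusted P = 0.215). The 8 genes of receptor folding and cofactors had a median of -0.60 (-0.83 to -0.44), with *Reck* at -0.79 (adjusted P = 0.2). Secreted antagonists and Kremen genes (12 of 15 tested) had a median of -0.49, which turned to 0.21 without DMSO replicate 1 and was -0.63 to -0.24 with any other library left out, with *Wif1* at -0.49 and *Sfrp5*, a Wnt-binding decoy with a Frizzled-like domain, at -1.13 (adjusted P = 0.121). The 16 receptor-proximal cytoplasmic genes had a median of 0.12 (0.03 to 0.15), with the kinases *Csnk1a1* at -0.16 and *Csnk1e* at 0.66 (adjusted P = 0.254). The 11 planar cell polarity genes had a median of -0.69 (-1.02 to -0.38), with *Daam1* at -0.15. In this list every SAG library was below every DMSO library for *Vangl1*, *Vangl2*, and *Prickle2*, 3 of 11 genes against 3.84% of all genes, at log2 fold changes of -1.27, -1.49, and -1.04 and adjusted P values of 0.257, 0.145, and 0.366. Of the 11 genes 9 lay below 0, and *Celsr3*, at 1.19 (adjusted P = 0.295 by edgeR), and *Scrib*, at 0.12, lay above.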

How the data were processed

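The authors deposited raw counts per gene and library, as whole numbers in 1 table, and the submitters' processing notes name kallisto, DESeq2, and GRCm38 without roles or order. RNA had been made into libraries with a stranded total RNA kit for low input. Whether counting used the strand is not given in the sources used here. The study's text gives the injection days both as printed here and 1 day later.

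The 8 libraries were matched by their labels. Genes were annotated with GENCODE M21 (GRCm38). In R 4.3.3, edgeR 4.0.16 kept 15421 genes (filterByExpr), scaled library sizes by TMM, and tested SAG against DMSO by its quasi-likelihood F test (robust). Adjustment followed Benjamini and Hochberg, and genes under 0.05 were called. Log2 CPM used a prior count of 2. The fits were also run on simulated counts with known changes. Those counts held no shift in cell makeup, and the run is not used as support here. Alternatives were DESeq2 1.42.0, limma 3.58.1 (voom), other scalings and filters, a replicate block, marker scores as covariates, and each library left out. Pairs of libraries differed by far more than counting noise.

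The members and lists were chosen with earlier results of these data known. Besides the members, the genes named are, for each list, the most abundant and that with the smallest P, *Smo*, the 3 genes most like *Fzd1*, *Fzd7*, *Lrp5*, and *Lrp6*, and leading markers. *Fzd9*, *Vangl1*, *Prickle2*, *Celsr3*, *Scrib*, *Pthlh*, and *Nt5e* were named after their values were seen. Of the lists, 7 Wnt ligand genes, *Sost*, and *Sostdc1* were not in the count table. Listed genes that were present and not tested had not passed edgeR's filter.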

Additional observations from a re-analysis of the deposited data

Results flagged for a closer look

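For each member and group, the gap between the highest or lowest of the 4 libraries and its neighbor was compared with Dixon's 95% critical value. Of 20 such pairs 0 passed it, where chance gives about 1 in 20.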

How the results depend on the processing

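The log2 fold change of *Fzd1* was below 0 in 20 of 20 alternatives, from -2.73 to -0.73, and that of *Fzd5* was above 0 in 20 of 20. The number of members called was 1 (*Fzd1*) by DESeq2 and by limma voom, and 0 to 1 with a library left out, where DMSO replicate 4 gave the 1. Of the genes in the 8 lists, 4 were called by DESeq2, 6 by voom, 1 with the B lineage score, 5 when DMSO replicate 4 and SAG replicate 2 were both left out, and 0 to 7 with 1 library left out (7 without DMSO replicate 4, 1 without SAG replicate 1). Over all genes, 445 were called by edgeR, 1225 by DESeq2, 1370 by voom, 8, 11, and 216 with the chondrocyte, neutrophil, and endothelial scores, 1029 without both libraries, and 86 to 1360 with 1 library left out, a move of over 1.5 times for each library but SAG replicate 1. Calls of lower genes, 41 at first, were 87 among genes with at least 10 counts in every library. The omission of both libraries was chosen after seeing the data.

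The direction of the members other than *Fzd1* and *Fzd5* depended on the processing, and the cause was not tested. With the chondrocyte score the log2 fold changes of *Fzd2*, *Fzd3*, *Fzd6*, *Fzd7*, and *Lrp6* turned to 1.02, 0.42, 0.56, 0.53, and 0.52. With the neutrophil score those of *Fzd2*, *Fzd6*, *Fzd7*, and *Lrp6* turned to 2.01, 1.20, 0.79, and 1.01. The B lineage score gave 1.80 for *Fzd3*, -0.64 for *Fzd4*, and -0.30 for *Lrp5*, the endothelial score 0.11 for *Fzd3* and 0.60 for *Fzd6*, voom 0.26 for *Fzd3* and -0.07 for *Fzd8*, plain library size -0.01 for *Fzd4*, and the omission of both libraries 0.01 for *Fzd6* and -0.04 for *Fzd8*. With 1 library left out the values ran from -0.52 to 1.04 for *Fzd3*, -0.28 to 0.71 for *Fzd4*, -0.55 to 0.18 for *Fzd6*, -0.32 to 0.60 for *Fzd8*, and -1.95 to -1.45 for *Fzd1*. Medians of the lists turned too. The members' median was 0.54, 0.97, -1.08, and 0.09 with the chondrocyte, neutrophil, B lineage, and endothelial scores and 0.13 with the replicate block. With the chondrocyte score the Wnt ligands, other receptors, LDL receptor family, folding genes, and antagonists turned to 0.37, 0.46, 0.10, 0.21, and 0.43, and with the neutrophil score these and receptor turnover turned to 1.87, 0.56, 0.85, 0.46, 1.10, and 0.94. With the B lineage score receptor turnover was at -2.09. With the block the antagonists were at -0.14. *Fzd3* could not be fitted with the minimum of 10 counts.

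The sample titles number the mice 1 to 4 in both groups, while the sample descriptions continue the DMSO numbering into the SAG group. Deviations of libraries with the same number correlated at 0.12, 0.0219, 0.0195, and 0.0102, so the numbers were not taken to pair the mice. With the replicate number as a block, *Fzd1* had -1.80 (adjusted P = 0.0962 by edgeR), 0 members were called, *Fzd3* and *Fzd6* turned to 0.77 and 0.09, and 18 genes in all were called lower.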
